A study of Saccharomyces cerevisiae with 26 samples.

Results

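Sterol synthesis and storage in budding yeast was described through 31 genes, chosen by name out of the 6008 genes of the RNA table. All 31 were measured and tested. They code for 9 enzymes that lead from acetyl-CoA to farnesyl diphosphate, 3 enzymes from there to lanosterol and 11 proteins of the late sterol steps. The others are 2 electron donors, 2 acyltransferases that store sterol as esters and 4 regulators.

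Yeast makes ergosterol, the counterpart of animal cholesterol, from acetyl-CoA through mevalonate, farnesyl diphosphate, squalene and lanosterol. Reduction of HMG-CoA to mevalonate is the main control point of the pathway, and several steps from squalene onwards use molecular oxygen and electrons passed on from NADPH. Surplus sterol is esterified and kept in lipid droplets, and the transcription factors Upc2 and Ecm22 induce many of the genes when sterol is low.

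RNA was sequenced from a CEN.PK strain carrying TAF14[W81A] and from CEN.PK without that change. TAF14 is a shared subunit of several transcription and chromatin remodelling complexes, and its YEATS domain, where the exchanged tryptophan lies, binds acylated histone lysines. Cells of both genotypes cycled metabolically in continuous culture and were taken at 5 time points, which the labels place in early OX (oxidative, 1), late OX (2), early RB (reductive building, 3), late RB (4) and RC (reductive charging, 5). Each of the 10 groups of genotype and time point had 2 libraries, 20 in all, and the other 6 of the 26 samples were ChIP libraries from CEN.PK at time points 3 and 4. The labels do not say whether the replicates came from separate cultures or whether the mutant was a single clone, so p-values measure the spread between these samples. In bulk RNA, fewer cells and less RNA per cell cannot be told apart.

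The libraries held between 1993423 and 3692333 reads in the genes summed, and Pearson's r across genes between the libraries of each group lay between 0.985 (early OX in wild type) and 0.994. The lowest count of any of the 31 genes in a library was 21 reads, for ARE1. Values per library are scaled reads (reads multiplied by the deposited scaling of their library, not divided by length), which compare samples and not genes. For 9 of the 31 genes, the 2 libraries of at least 1 group could not be separated, and only the group mean is given there. Differences are log2 values from limma on log2(scaled reads + 1) with their SE and 2 libraries per group, and called means a two-sided p under 0.05 after Benjamini-Hochberg adjustment over 5860 genes. The RNA level of TAF14 does not check the genotype, since W81A changes the protein. The authors' deposited table gives TAF14 log2 fold changes of mutant over wild type of 0.17, 0.36, 0.16, 0.24 and -0.01 at time points 1 to 5, with an adjusted p under 0.05 at time point 2 (0.000839).

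Nearly all of these genes moved with the cycle. In the mutant 30 of the 31 changed over the 5 time points, all but ERG27, and in wild type all 31 did, with 91.5% of all genes called in the mutant and 93.5% in wild type, so the counts themselves are near the background. The shape differed among the genes. In the mutant 16 of the 31 had their highest mean in RC and 8 in early OX, and in wild type 12 were highest in RC and 14 in early OX. Some of the wild-type peaks were near ties. The early OX and RC means were 787 and 774 for ERG8 and 596 and 580 for ERG27. For ERG2 they were 2063 and 1965, and for MVD1 2029 and 1962. Upper-quartile scaling moved the all-gene median of early OX against RC by -0.20 in wild type, so these counts do not set the genotypes apart. No share of all genes stands beside them. In the mutant 11 were lowest in late OX and 11 in late RB, and in wild type 10 and 11. Of the mutant late OX minima, those of ERG10, ERG20 and ERG27 were not called against early OX. That of NSG2 changed sign against early OX with upper-quartile scaling, so the late OX count of the mutant depends on the scaling. Upper-quartile scaling moved the all-gene median of late against early OX by 0.27 in the mutant and 0.17 in wild type.

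The enzymes that build mevalonate mostly rose towards RC. HMG1 (chromosome XIII, 115734 to 118898 in RefSeq R64), the HMG-CoA reductase that catalyses the controlled step, had 937 and 962 scaled reads at time point 1 in the mutant, then 622 and 635, 1373 and 1373, 2073 and 2084, and 5879 and 5791 at time point 5. In wild type HMG1 had 1550 and 1338, 904 and 874, 2090 and 2101, 3185 and 3282, and 6601 and 6402. The libraries of the time points did not overlap in either genotype, the lowest values were in late OX and the highest in RC. From late RB to RC, HMG1 rose by 1.49 ± 0.06 in the mutant and by 1.01 ± 0.06 in wild type (limma, adjusted p = 1.95e-11 and 6.35e-10).

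ERG13, the HMG-CoA synthase one step earlier, took the same course. It had 4643 and 4469 scaled reads in RC and 1298 and 1296 in late OX in the mutant, against a mean of 5139 in RC and 1496 and 1481 in late OX in wild type. From late RB to RC it rose by 1.21 ± 0.06 in the mutant and by 1.14 ± 0.06 in wild type. ERG10, the acetyl-CoA acetyltransferase that opens the pathway, and ERG20, the farnesyl diphosphate synthase, also had their highest mean in RC and their lowest in late OX in both genotypes, over smaller spans (0.72 and 0.68 on the log2 scale in the mutant, 0.82 and 0.70 in wild type). In the mutant their late OX means were not set apart from early OX (limma, -0.06 and -0.04, adjusted p = 0.341 and 0.598). In wild type both calls between early and late OX were lost with upper-quartile scaling. ERG12 (mevalonate kinase) and ERG8 (phosphomevalonate kinase) spanned 0.56 and 0.45 in the mutant and 0.53 and 0.61 in wild type.

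HMG2 (chromosome XII, 1032627 to 1035764), which codes for the other HMG-CoA reductase and whose protein is degraded when sterol intermediates build up, followed another course. Its libraries in the mutant held 439 and 367 scaled reads at time point 1, 750 and 732 at 2, 1106 and 1163 at 3, 1255 and 1381 at 4 and 1111 and 1111 at 5. In wild type it had 389 and 324 at time point 1, 729 and 718 at 2, 1175 and 1306 at 3, 1654 and 1685 at 4 and 1313 and 1262 at 5. HMG2 was thus lowest in early OX and highest in late RB in both genotypes. It fell from late RB to RC by 0.37 on the log2 scale in wild type (adjusted p = 0.0019), where HMG1 rose, but the call was lost with upper-quartile scaling. In the mutant the same step was -0.25 ± 0.09 (adjusted p = 0.0366), a call that was lost without library 2 of late RB or without either library of RC.

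IDI1 (chromosome XVI, 327864 to 328730), the isopentenyl diphosphate isomerase, had a U-shaped course. In the mutant its libraries held 3524 and 3539 scaled reads in early OX, 994 and 1049 in late OX, 711 and 673 in early RB, 709 and 698 in late RB and 2409 and 2358 in RC. In wild type the mean of early OX was 3284, and the libraries of the later time points held 902 and 868, 545 and 507, 558 and 548, and 2226 and 2325. Early OX and RC were high and both RB time points low, with no overlap. MVD1, the mevalonate diphosphate decarboxylase that makes the substrate of IDI1, had a shallower course of this kind, with 2180 and 2249 scaled reads in RC and 1289 and 1297 in late RB in the mutant, against 1948 and 1975 in RC and 1040 and 1021 in late RB in wild type.

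**Figure D1:**
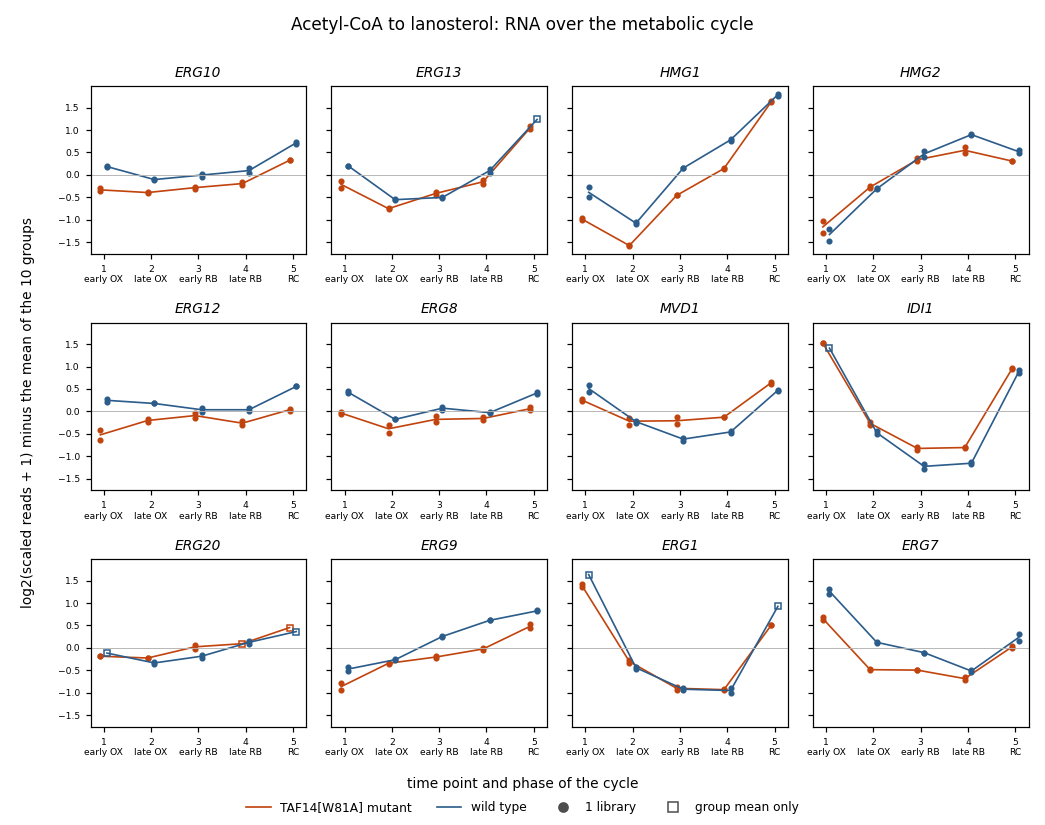
RNA of the 12 genes from acetyl-CoA to lanosterol, as log2(scaled reads + 1) minus the mean of the 10 groups, at 5 time points, with the TAF14[W81A] mutant left of wild type (points are libraries, lines join group means, open squares are groups known only by their mean). HMG1, ERG13 and ERG9 climb towards RC, HMG2 is highest in late RB, and IDI1, ERG1 and ERG7 are high in early OX and low in RB.

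Between farnesyl diphosphate and lanosterol the 3 genes split. ERG9, the squalene synthase at the branch from isoprenoids to sterols, rose along the cycle: the mutant libraries held 1966 and 1867 scaled reads in RC and 791 and 710 in early OX, and the wild-type libraries 2446 and 2403 in RC and 1013 and 956 in early OX. In the mutant its calls from late OX to early RB and from early to late RB were lost without some single library. The call from late OX to early RB was also lost with upper-quartile scaling. ERG1, the oxygen-dependent squalene epoxidase, was U-shaped, with 6819 and 7144 in early OX, 1380 and 1407 in late RB and 3796 and 3784 in RC in the mutant. In wild type ERG1 had a mean of 8304 in early OX, 1431 and 1319 in late RB and a mean of 5086 in RC. ERG7, the lanosterol synthase that closes the sterol rings, also had its maximum in early OX and its minimum in late RB in both genotypes. It had 416 and 395 scaled reads in late RB and 1012 and 1050 in early OX in the mutant, against 466 and 450 in late RB and 1517 and 1621 in early OX in wild type.

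The late steps held some of the widest swings among the enzymes. ERG11 (chromosome VIII, 120091 to 121683), the cytochrome P450 lanosterol demethylase targeted by azole antifungals, had in the mutant a mean of 20542 scaled reads in early OX, libraries of 6189 and 6868 in late OX, 3117 and 3097 in early RB and 2426 and 2353 in late RB, and a mean of 11559 in RC. In wild type the mean was 16730 in early OX, the libraries held 4287 and 4524, 2760 and 2555, and 2078 and 2062, and the mean of RC was 12983. ERG25 (chromosome VII, 610564 to 611493), the C-4 methyl sterol oxidase, had in the mutant a mean of 11771 in early OX, libraries of 1485 and 1406 in late RB and a mean of 8193 in RC. In wild type it had a mean of 8424 in early OX, libraries of 1301 and 1290 in late RB and a mean of 8854 in RC. Both genes fell at each step through OX and RB and rose into RC, where ERG11 gained 2.27 ± 0.08 in the mutant and 2.65 ± 0.08 in wild type, and ERG25 gained 2.5 ± 0.07 in the mutant and 2.77 ± 0.07 in wild type (adjusted p between 1.33e-11 and 2.12e-10).

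ERG3, the C-5 desaturase, fell later. It had 4940 and 4848 scaled reads in early OX, a mean of 5340 in late OX, then 1323 and 1424, 690 and 635, and 2106 and 2198 in the mutant. In wild type it had a mean of 4806 in early OX, then 4127 and 4062, 1634 and 1560, 602 and 601, and 3121 and 3096. ERG3 was thus high through OX in both genotypes and low in late RB. ERG5, the P450 C-22 desaturase, fell at each step through OX and RB in both genotypes, though the call from early to late RB in the mutant was lost without library 2 of either time point. It had 4901 and 4850 in RC and 1121 and 1071 in late RB in the mutant, against a mean of 5289 in RC and 1183 and 1098 in late RB in wild type. The RC mean of ERG5 was its highest in both, but early OX lay near it (4529 and 4323 in the mutant, 4542 and 4314 in wild type). Between early OX and RC ERG5 was not called in the mutant. The wild-type call was lost on the libraries of those time points alone.

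ERG6, the sterol methyltransferase that sets fungal sterols apart, ran the other way. Its mutant libraries held 3681 and 3160 scaled reads in early OX, 1874 and 1801 in late OX and 5535 and 4541 in early RB, with means of 9643 in late RB and 10943 in RC. In wild type the mean was 4219 in early OX, the late OX libraries held 2510 and 2567, and the means were 5357, 8900 and 10761 at the 3 later time points. ERG6 was lowest in late OX, where ERG3 was high. ERG4, the reductase of the last step, fell to 571 and 585 in RC in the mutant, against 1166 and 1147 in late RB, and to 458 and 466 in RC in wild type, against 875 and 815 in late RB. It was the only one of the 11 late genes whose mean fell from late RB to RC in the mutant, and in wild type ERG28 fell as well.

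The other late genes moved less. ERG28, which tethers the C-4 demethylation enzymes to each other, spanned 1.47 in the mutant and 1.59 in wild type and was lowest in early OX. ERG24 (C-14 reductase), ERG26 (C-3 dehydrogenase), ERG27 (3-keto reductase) and ERG2 (C-8 isomerase) spanned 0.46, 0.75, 0.26 and 0.28 in the mutant and 0.56, 0.64, 0.46 and 0.79 in wild type. ERG2 was nearly flat in the mutant, with its lowest library at 1914 and its highest at 2346 scaled reads, whereas in wild type its libraries ran between 1176 and 2247.

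CYB5 (chromosome XIV, 416940 to 417302), cytochrome b5, which passes electrons to the oxygen-dependent sterol and fatty acid enzymes, had the widest span of the 31 genes in both genotypes, 3.48 in the mutant and 4.70 in wild type. In the mutant it had 1260 and 1455 scaled reads at time point 1, 198 and 241 at 2, 136 and 122 at 3, 122 and 119 at 4 and 861 and 810 at 5. In wild type it had 1848 and 2112 at time point 1, 161 and 153 at 2, 78 and 72 at 3, 99 and 68 at 4 and 907 and 950 at 5. CYB5 was high in early OX and RC and low in between, as ERG11 and ERG25 were. NCP1, the NADPH-cytochrome P450 reductase, spanned 0.58 in the mutant and 0.90 in wild type and was lowest in RC in both.

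ARE2 (chromosome XIV, 665339 to 667267), the sterol acyltransferase with the larger part of the activity in aerobic cells, rose after late OX. The mutant libraries had 452 and 395 scaled reads at time point 1, 304 and 274 at 2, 471 and 516 at 3, 698 and 672 at 4 and 961 and 1042 at 5. Those of wild type had 678 and 625 at time point 1, 415 and 410 at 2, 845 and 982 at 3, 1414 and 1423 at 4 and 1472 and 1443 at 5. The mutant was below wild type at each time point with no overlap, and it still rose from late RB to RC (0.55 ± 0.09, adjusted p = 6.33e-05), where wild type changed by 0.04 ± 0.09. ARE1, the related enzyme, was low throughout, with 16 to 45 scaled reads in the mutant libraries and 28 to 80 in the wild-type libraries, and the overlapping gene YCR050C may share reads with it.

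The regulators took opposite courses. UPC2, which activates sterol genes when sterol is low, had 89 and 88 scaled reads in late RB and 220 and 203 in early OX in the mutant, against 107 and 88 in late RB and 341 and 306 in early OX in wild type. ECM22, its relative, had 337 and 377 in early RB and 131 and 142 in early OX in the mutant, against 525 and 539 in early RB and 125 and 124 in early OX in wild type. UPC2 was highest in early OX, with no overlap with late RB, and ECM22 in early RB, with no overlap with early OX. The early RB peak of ECM22 was not set apart from late RB, where it had 343 and 350 in the mutant and 482 and 466 in wild type. No regulator was called between early and late RB in either genotype, though with upper-quartile scaling 2 of the 4 were lower in late RB in wild type. NSG1 and NSG2, relatives of the animal INSIG proteins that bind HMG-CoA reductase, differed too: NSG1 was lowest in late RB (297 and 269 in the mutant, 224 and 236 in wild type) and highest in early OX (797 and 827 in the mutant, 727 and 722 in wild type), while NSG2 spanned only 0.43 in the mutant and 0.69 in wild type and overlaps YNL155C-A.

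**Figure D2:**
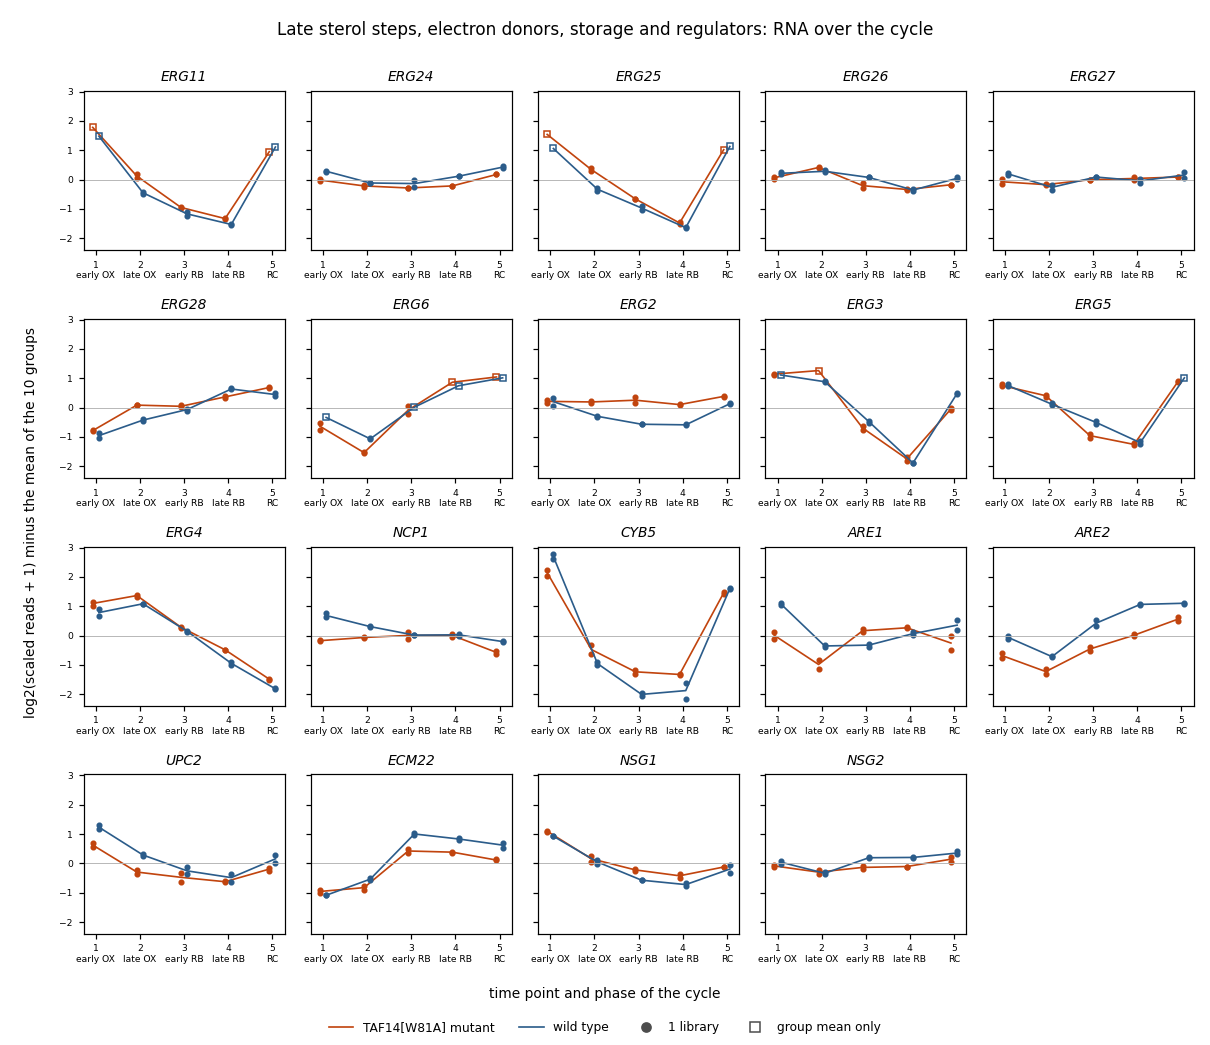
RNA of the 19 genes of late sterol steps, electron donors, ester storage and regulation, plotted on the scale of log2(scaled reads + 1) minus the mean of the 10 groups, with the TAF14[W81A] mutant left of wild type (points are libraries, lines join group means, open squares are groups known only by their mean). ERG11, ERG25, ERG3, ERG5 and CYB5 drop into RB and return in RC, ERG6 and ARE2 climb, and ARE2 of the mutant runs below wild type at all 5 time points.

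Most of these genes rose in the step into RC. In the mutant 24 rose and 5 fell (44.6% of all genes called, 23.6% higher and 20.9% lower), and in wild type 22 rose and 5 fell (61% of all genes called, 31.7% higher and 29.2% lower). The median change was 0.39 in the mutant and 0.53 in wild type, beside 0.03 and 0.01 over all genes. Among the 9 mevalonate and isoprenoid genes 8 rose and HMG2 fell in each genotype (the fall in wild type was not called with upper-quartile scaling), with medians of 0.52 in the mutant and 0.62 in wild type. Of the 11 late genes 8 rose in each, with medians of 0.32 and 0.41, and the largest gains among them were those of ERG25, ERG11, ERG5 and ERG3. With upper-quartile scaling, which moved the all-gene median of the wild-type step by 0.16, 24 of the 31 rose and 1 fell there, while the counts of the mutant were again 24 and 5. Without any single library 18 of the rises and 2 of the falls still held in the mutant, and 21 and 2 in wild type. The calls lost were those of 9 genes in the mutant (ERG2, ERG8, ERG26, HMG2, UPC2, ECM22, ARE1, NSG1 and NSG2) and 4 in wild type (ERG27, ERG28, NCP1 and ECM22). Where the libraries of a group could not be separated, leaving 1 out did not change the estimate, so those libraries were not checked. In RC this holds for ERG6, ERG11, ERG20 and ERG25 in both genotypes, and for ERG1, ERG5 and ERG13 in wild type.

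**Figure D3:**
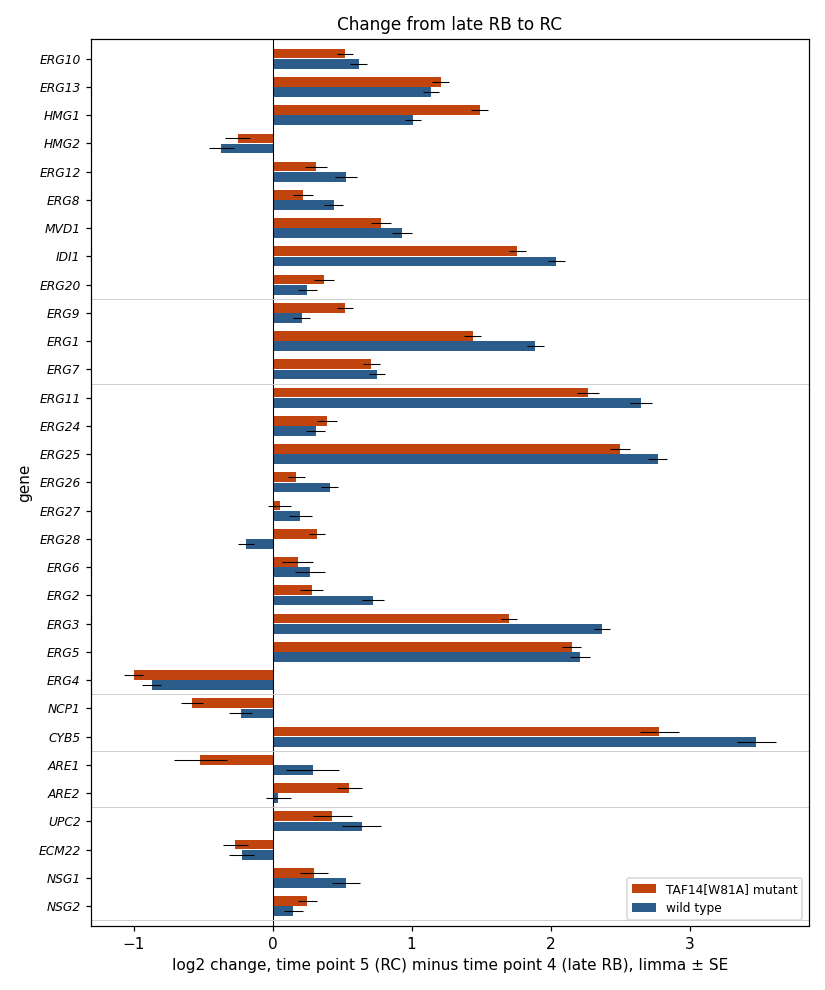
Log2 change from late RB (time point 4) to RC (time point 5) of each of the 31 genes, grouped by step, with the TAF14[W81A] mutant above wild type (bars are limma estimates, whiskers 1 SE). CYB5, ERG25, ERG11 and ERG5 are among the widest gains in both genotypes, ERG4 falls in both genotypes, and HMG1, ERG28 and ARE2 gain more in the mutant.

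The size of that step differed between the genotypes for 12 of the 31 genes, 4 with a larger value in the mutant and 8 with a smaller one (21.2% of all genes called, 7.88% larger and 13.3% smaller). This comparison was added after the values had been seen. The difference was 0.48 ± 0.09 for HMG1, 0.52 ± 0.09 for ERG28, 0.51 ± 0.12 for ARE2 and 0.31 ± 0.08 for ERG9. It was -0.67 ± 0.09 for ERG3, -0.45 ± 0.11 for ERG2 and -0.44 ± 0.09 for ERG1 (adjusted p = 0.000106, 0.00991 and 0.00248). The calls of ERG9, ERG11, IDI1, NCP1, ARE1 and CYB5 were lost without some single library, and the count was 6 without library 1 of mutant late RB. With upper-quartile scaling, which moved the all-gene median of this comparison by -0.15, 3 were larger and 14 smaller.

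The step from early to late OX went mostly the other way. In the mutant 6 rose and 18 fell (72.4% of all genes called, 35.2% higher and 37.2% lower), and in wild type 5 rose and 24 fell (74.7% called, 34.7% higher and 40.1% lower). The medians were -0.35 in the mutant and -0.61 in wild type, beside -0.02 and -0.06 over all genes. CYB5 had the widest fall, with a log2 change of -2.62 in the mutant and -3.65 in wild type, followed by ERG1, ERG11 and IDI1, which fell by 1.66 to 1.79 in the mutant and by 1.89 to 2.08 in wild type. HMG2, ERG28 and ERG9 rose in both genotypes, by 0.88, 0.87 and 0.51 in the mutant and by 1.03, 0.53 and 0.21 in wild type. Upper-quartile scaling moved the all-gene median by 0.27 in the mutant and 0.17 in wild type, and it gave 12 rises and 14 falls in the mutant and 6 and 21 in wild type.

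From late OX to early RB 10 rose and 10 fell in the mutant (59% of all genes called, 29.9% higher and 29.2% lower), and 10 rose and 15 fell in wild type (65.9% called, 33.8% higher and 32.2% lower). Of the 9 mevalonate and isoprenoid genes 5 rose and 1 fell in the mutant (median 0.21), and 3 rose and 2 fell in wild type (median 0.10), where these shares are near or under those of all genes. Of the 11 late genes 1 rose and 6 fell in the mutant (median -0.62), and 3 rose and 7 fell in wild type (median -0.27). From early to late RB 6 rose and 6 fell in the mutant (22.5% of all genes called, 11.8% higher and 10.6% lower), with 2 rises and no fall among the mevalonate genes and 2 rises and 5 falls among the late genes. In wild type 9 rose and 7 fell (42.6% called, 22.8% higher and 19.8% lower), with 4 rises and no fall among the mevalonate genes and 3 rises and 6 falls among the late genes. ERG3 had the widest fall in this step, with a log2 change of -1.05 in the mutant and -1.41 in wild type, and ERG6 rose most, by 0.94 and 0.73. Upper-quartile scaling moved the all-gene median of the wild-type step by -0.11, and 8 rose and 11 fell in wild type under it, 4 and 1 of them among the mevalonate genes.

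From RC to the early OX time point, which closes the cycle, 12 were higher and 14 lower in early OX in the mutant (78.8% of all genes called, 39.7% higher and 39.1% lower), and 12 were higher and 13 lower in wild type (79.4% called, 40.5% higher and 38.9% lower). ERG4 gained most, by 2.58 in the mutant and 2.59 in wild type, and HMG1 had the widest fall, with log2 changes of -2.62 and -2.17. In the mutant 7 of the 9 mevalonate and isoprenoid genes were lower in early OX than in RC and only IDI1 was higher. In wild type 6 were lower and 1 was higher. With upper-quartile scaling 8 were lower and 1 was higher in each genotype. Upper-quartile scaling moved the all-gene median by -0.27 in the mutant and -0.20 in wild type, and gave 10 higher and 18 lower in the mutant and 10 and 17 in wild type.

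Over the mean of the 5 time points the mutant had less RNA of most genes of the early pathway and of storage. Of the 31 genes 9 were higher and 18 lower in the mutant than in wild type (69.4% of all genes called, 37% higher and 32.4% lower), with a median of -0.10 beside 0.02 over all genes. Of the 9 mevalonate and isoprenoid genes 6 were lower (HMG1, ERG12, ERG10, ERG8, ERG13 and HMG2) and 2 higher (IDI1 and MVD1), with a median of -0.19. HMG1 was lower by 0.50 ± 0.03, which is 0.707 times wild type (adjusted p = 3.5e-10). All 3 genes from squalene to lanosterol were lower, ERG7 at 0.759, ERG9 at 0.766 and ERG1 at 0.934 times wild type. ARE2 differed most of the 31, at 0.606 times wild type (-0.72 ± 0.04, adjusted p = 1.87e-10), and ARE1 was at 0.799 times wild type.

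The late genes were divided. ERG2 (0.45 ± 0.04), ERG4 (0.30 ± 0.03), ERG25 (0.30 ± 0.03), ERG11 (0.23 ± 0.04) and ERG28 (0.15 ± 0.03) were higher in the mutant. ERG24 (-0.23 ± 0.03), ERG6 (-0.15 ± 0.05) and ERG26 (-0.10 ± 0.03) were lower, and the median of the 11 was -0.04. ERG3, ERG5 and ERG27 were not called, at -0.04, -0.07 and -0.05, nor was ERG20, at 0.06. The electron donors split into NCP1 at -0.32 ± 0.03 and CYB5 at 0.22 ± 0.06. Of the regulators UPC2 (-0.38 ± 0.06), ECM22 (-0.34 ± 0.04) and NSG2 (-0.19 ± 0.03) were lower and NSG1 (0.20 ± 0.04) was higher. The call of ERG6 was lost without library 2 of mutant late OX, and that of HMG2 (-0.09 ± 0.04, adjusted p = 0.0488) was lost without any of 16 single libraries.

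**Figure D4:**
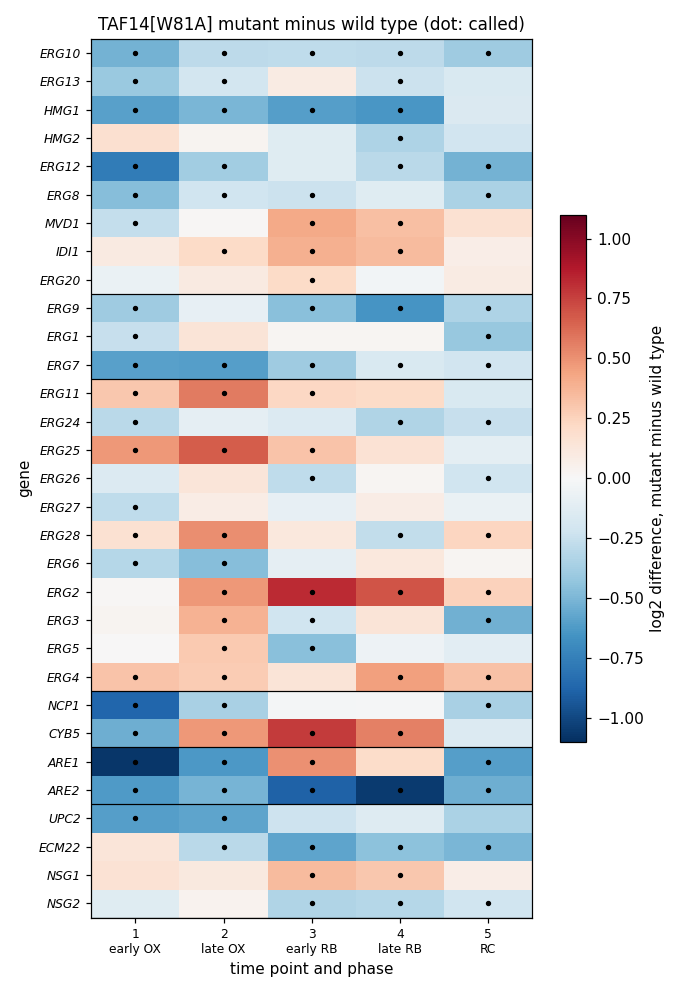
Log2 difference between the TAF14[W81A] mutant and wild type for the 31 genes (rows, grouped by step) at the 5 time points (columns), with red for higher in the mutant, blue for lower, and a dot where limma called the difference. ERG10, ERG7 and ARE2 are called lower in the mutant at all 5 time points, though the ERG7 calls of late RB and RC do not hold without some single library, and ERG2 and ERG4 are higher at 4 of them.

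The difference varied over the cycle. The F test of genotype by time called 23 of the 31 genes, beside 47.2% of all genes. At time point 1 the mutant had 4 genes higher and 17 lower (49% of all genes called, 23.4% higher and 25.6% lower). At time point 2 it had 9 higher and 12 lower (47% called, 22.9% higher and 24.1% lower), and at time point 3 it had 9 and 11 (42.7% called, 24.6% and 18.1%). At time point 4 it had 6 higher and 12 lower (46.7% called, 24.9% higher and 21.8% lower), and at time point 5 it had 3 and 14 (29.4% called, 14% and 15.4%). The median difference was -0.26, 0.03, -0.10, -0.03 and -0.21 at time points 1 to 5. With upper-quartile scaling the counts of higher and lower genes were 2 and 19, 9 and 12, 7 and 11, 10 and 7, and 3 and 15 at time points 1 to 5, so that at time point 4 more genes were higher than lower. Without library 2 of mutant RC the count at time point 5 was 10. The authors' deposited adjusted p-values call 9 of the 31 at time point 1 instead of 21, where the median spread between libraries over all genes, though not over the 31 in the mutant, was widest in each genotype, and 17, 15, 15 and 21 at time points 2 to 5.

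The medians of the early pathway and of the late steps lay furthest apart in late OX. There 5 of the 9 mevalonate and isoprenoid genes were lower in the mutant and IDI1 was higher, with a median of -0.20, while 7 of the 11 late genes were higher and ERG6 was lower, with a median of 0.29. ERG25 had 4952 and 5262 scaled reads in the mutant, against 3073 and 3336 in wild type, a difference of 0.67 ± 0.07 (adjusted p = 2.03e-05). ERG11 was higher by 0.57 ± 0.08, ERG28 by 0.51 ± 0.06 and ERG2 by 0.48 ± 0.08, and the libraries of the 2 genotypes did not overlap for any of these. HMG1 was lower by 0.50 and ERG12 by 0.38 on the log2 scale. The call of ERG4 was lost without library 1 of mutant late OX, and those of ERG8, ERG13, IDI1, ECM22, ARE1 and CYB5 were lost without other single libraries.

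In early OX no mevalonate or isoprenoid gene was called higher in the mutant and 6 of the 9 were lower, beside 23.4% of all genes higher and 25.6% lower. ERG12 (290 and 334 scaled reads in the mutant, 519 and 546 in wild type) was lower by 0.77 ± 0.08 and HMG1 by 0.60 ± 0.06. NCP1 was lower by 0.87 ± 0.08, with 567 and 557 in the mutant against 979 and 1076 in wild type, and ARE1 by 1.07 ± 0.19, with 34 and 40 against 80 and 77. ERG25 (0.48 ± 0.07), ERG4 (0.31 ± 0.07) and ERG11 (0.30 ± 0.08) were higher. For ERG25 and ERG11 the early OX libraries could not be separated in either genotype, so their SE holds no spread of their own from early OX. Fitted on the libraries of early OX alone, 12 of the 29 genes that could be tested were called. The share of all genes called in that fit is not given here, so this count has no background beside it. ERG6, ERG27, ERG28 and MVD1 lost their calls without some single library, and ERG11 and ERG28 lost them with upper-quartile scaling. By the authors' deposited adjusted p-values ERG4 (0.243) and ERG11 (0.199) were not called in early OX, and ERG4 was not called on the libraries of early OX alone. Of the 6 lower mevalonate and isoprenoid genes, the authors' values did not call ERG8 (0.0627), ERG13 (0.0718) and MVD1 (0.29).

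In RB the differences were widest for ARE2 and ERG2. ARE2 was lower in the mutant by 0.89 ± 0.09 in early RB and by 1.05 ± 0.09 in late RB (adjusted p = 7.82e-07 and 6.61e-08). ERG2 had 2304 and 1983 scaled reads in the mutant against 1206 and 1212 in wild type in early RB, and 1914 and 1934 against 1202 and 1176 in late RB, and was higher by 0.82 ± 0.08 and 0.69 ± 0.08. ERG9 was lower by 0.46 ± 0.06 and 0.65 ± 0.06, HMG1 by 0.61 ± 0.06 and 0.64 ± 0.06, and ECM22 by 0.58 ± 0.09 and 0.45 ± 0.09. MVD1 and IDI1 were higher at both, by 0.42 and 0.39 in early RB and by 0.33 and 0.35 in late RB. CYB5 was higher by 0.77 ± 0.14 in early RB, with 136 and 122 in the mutant against 78 and 72 in wild type. The late RB call of CYB5 (0.55 ± 0.14) was lost without library 2 of wild-type late RB. In late RB the calls of ERG7 (-0.17), ERG13 (-0.24) and HMG2 (-0.34) were lost with upper-quartile scaling and without some single library, and that of NSG1 (0.30) was lost without some single library. ARE1 in early RB (0.50 ± 0.19, adjusted p = 0.0484) lost its call without any of 16 single libraries.

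In RC 14 of the 17 called genes were lower in the mutant. ERG3 (2106 and 2198 scaled reads in the mutant, 3121 and 3096 in wild type) was lower by 0.53 ± 0.06, ERG12 by 0.52 ± 0.08, ECM22 by 0.50 ± 0.09, ERG1 by 0.42 ± 0.06 and ERG10 by 0.39 ± 0.06. ERG4 was higher by 0.32 ± 0.07. HMG1, which was lower at the other 4 time points, differed by -0.16 in RC and was not called, and ERG11 and ERG25 were at -0.17 and -0.11. The authors' deposited adjusted p-values call all 3 lower in RC (0.00083 for HMG1, 4.31e-05 for ERG11 and 0.00789 for ERG25), and the HMG1 libraries, 5879 and 5791 in the mutant against 6601 and 6402 in wild type, did not overlap. ERG2, ERG7, ERG24, ERG26, ERG28, ARE1 and NSG2 were called in RC but not without some single library.

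Levels of related genes were compared on the deposited log2 levels, which are per length. HMG1 RNA was 5.21 times HMG2 RNA in RC in the mutant and 5.01 times in wild type. In late OX the ratio was 0.841 in the mutant and 1.22 in wild type, so that in the mutant HMG2 RNA was the more abundant at this time point. ARE2 exceeded ARE1 in all 10 groups, by 10.9 to 30.6 times in the mutant and by 7.87 to 34.9 times in wild type. UPC2 exceeded ECM22 in early OX, by 1.38 times in the mutant and by 2.31 times in wild type, and was the lower of the pair at the other 4 time points, down to 0.227 times in the mutant and 0.184 times in wild type in late RB. NSG2 exceeded NSG1 in all groups, by 1.13 to 3.21 times in the mutant and by 1.39 to 4.90 times in wild type. These ratios are of group levels and carry no test.

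**Figure D5:**
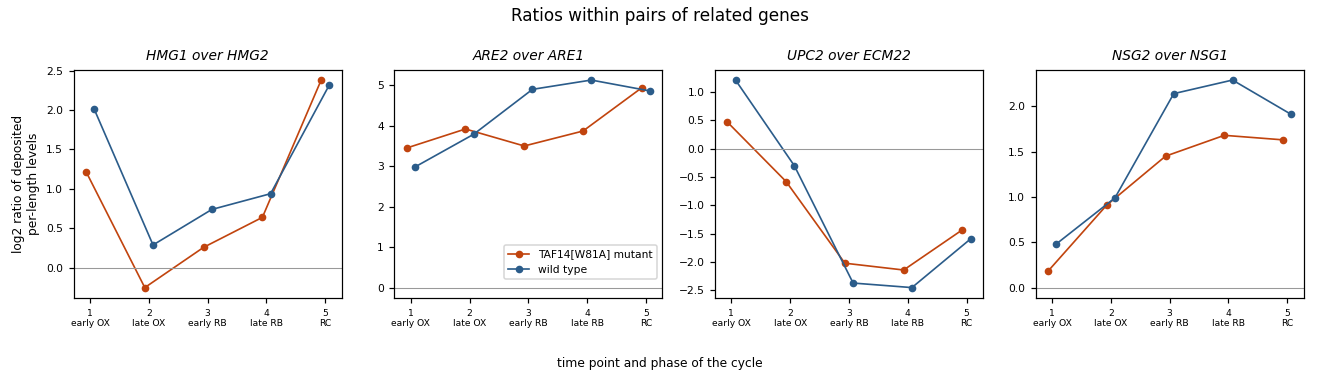
Log2 ratio of the deposited per-length levels within 4 pairs of related genes at 5 time points, with the TAF14[W81A] mutant left of wild type (points are group levels of 2 libraries, without error). HMG1 over HMG2 is lowest in late OX and highest in RC, and UPC2 over ECM22 lies above 0 only in early OX.

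As a description over the 10 group means, which share the time points and the fitted scaling, UPC2 ran most nearly with ERG7 (Pearson r = 0.98), ERG1 (0.86) and NSG1 (0.85) and against HMG2 (-0.87). ECM22 ran with HMG2 (0.92) and against NSG1 (-0.90) and UPC2 (-0.70). HMG2 and NSG1 mirrored each other (r = -0.97). ARE2 ran with HMG1 and NSG2 (0.93 each) and against ERG4 (-0.89).

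By median level, the 31 genes lay high in the transcriptome. Their median deposited log2 level per length was at the 82.3 percentile of all genes in early OX in the mutant and at 81.8 in wild type, was lowest in late RB (76 in the mutant, 75 in wild type) and highest in RC (89.5 in the mutant, 90.4 in wild type). The top level of a group belonged to ERG11, ERG25, ERG6 or ERG3, with ERG11 at 12.03 in early OX in the mutant and 11.73 in wild type. ARE1 was the lowest of the 31 in every group, between 1.68 and 2.97 in the mutant and between 2.33 and 3.80 in wild type. The storage genes and the regulators did not lie high. Over the groups of both genotypes the median of the storage genes lay between the 7.03 and 28.9 percentiles, and that of the regulators between 38 and 53.4.

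H3K9ac, acetylation of lysine 9 of histone H3 that marks active promoters and gene starts, was measured in CEN.PK with 1 ChIP library at each of time points 4 and 3, so its differences have no replicate check and no test. The scale of the deposited signal, its normalization to H3 and the definition of the position bins are not stated. Neighbouring genes that share a start side correlated at bin 1 (Pearson r = 0.503) and those that share an end side at bin 57 (0.386), so low bins were read as the start side. In bins 11 to 20 the median signal of the 31 genes was 0.921 in late RB and 0.946 in early RB, and over all 6008 genes it was 0.823 and 0.897. The median difference of late minus early RB was -0.0132 for the 31 genes and -0.0572 over all genes, and 20 of the 31 lay above the all-gene median. Over bins 1 to 57 the median difference of the 31 genes turned to 0.0206, beside -0.0196 over all genes.

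Single genes differed more. ERG28 had 1.77 in late RB and 1.46 in early RB, a difference at the 98.4 percentile of all genes. CYB5 had 0.782 and 0.548 and NSG1 had 1.35 and 1.12, at the 96.8 and 96.7 percentiles. These ranks depended on the bins: over bins 1 to 57 ERG28 was at the 70.9 percentile, and CYB5 (-0.00156) and NSG1 (-0.0302) turned sign. ERG6 had 1.1 in late RB and 1.72 in early RB, at the 0.183 percentile, and ERG10, ERG20 and ERG27 lay at percentiles of 6.86 to 6.97. Over bins 1 to 57 ERG6 was at 4.83, ERG10 at 6.42, ERG20 at 4.28 and ERG27 at 43.8. The RNA of ERG6 rose in wild type over the same step, by 0.73, and that of ERG28 by 0.71, so the 2 genes had RNA changes of one sign and signal changes of opposite sign.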

How the data were processed

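Per the file headers, the authors deposited 1 log2 level per gene, genotype and time point, joining 2 replicates, with their own log2 fold change and adjusted p-value. They also deposited a ChIP signal per gene and position bin. Per the submitters' processing notes, the build was sacCer3 and the tools included BWA, DESeq2, MACS2 and deepTools, in roles not given; versions, annotation and strand use in counting are not given in the sources used here.

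Reads of the 2 libraries were recovered from the decimals of each level: the linear level times gene length is a sum of whole reads, each times the step of its library, within 1.15 times the rounding. This held at the RefSeq length for 5438 of 5747 genes (all 31 members among them), against 0.958% with shuffled lengths, and 438 genes were used at a searched length. The 132 genes with none, TAF14 among them, were left out of the fit. Libraries carry no A or B letter. The pseudocount was 1, no filter on low values was used, and limma 3.58.1 (trend, R 4.3.3) fitted the 10 group means with 10 residual degrees of freedom. A group with several solutions entered as its mean with fewer degrees of freedom. Contrasts were each step of the cycle, each genotype difference and their mean, and F tests over time and of genotype by time. The scripts were tested on simulated data.

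The members, subgroups and related lists were chosen with earlier results of these data known. All 31 members are named. Of each related list, at most the 2 called genes with the largest change in the mean difference of the genotypes and in the wild-type step into RC are named. Groups come from the labels. H3K9ac was averaged over bins 11 to 20, and bins above 57, incomplete at time point 4, were not used. Alternatives were upper-quartile scaling, a pseudocount of 10, a minimum mean of 50 scaled reads, single-solution genes, the libraries compared alone, the fit without time point 1, each library left out and the authors' adjusted p.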

Additional observations from a re-analysis of the deposited data

Results flagged for a closer look

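The genotype difference varied over the 5 time points for 23 of the 31 genes, beside 47.2% of all genes (limma F test of genotype by time, Benjamini-Hochberg adjusted p over 5860 genes). Among the mevalonate and isoprenoid genes the adjusted p was 0.00143 for HMG1, 0.0204 for HMG2, 0.00135 for ERG12, 0.0047 for ERG13, 0.000212 for MVD1 and 0.0118 for IDI1. Between farnesyl diphosphate and lanosterol it was 0.000784 for ERG9, 0.000619 for ERG1 and 0.000969 for ERG7. Among the late genes it was 1.42e-05 for ERG3, 7.26e-05 for ERG28, 0.000148 for ERG2, 0.000376 for ERG5, 0.000582 for ERG25, 0.00275 for ERG11, 0.00609 for ERG26 and 0.0449 for ERG6. The electron donors NCP1 and CYB5 had 4.61e-05 and 0.000191. ARE1 had 0.000904 and ARE2 0.0049, and the regulators ECM22 and NSG2 had 0.00107 and 0.0297.

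The adjusted p was lowest for ERG3, whose difference between mutant and wild type was 0.38 in late OX, -0.22 in early RB and -0.53 in RC. NCP1 differed by -0.87 in early OX and by -0.02 and -0.01 in RB. CYB5 was lower in the mutant in early OX (-0.54) and higher in early RB (0.77).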

How the results depend on the processing

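Of 369 called changes of single genes, 89 lost the call under at least 1 alternative, 69 of them without some single library, and 4 changed sign. For groups known only by their mean, leaving out 1 library did not change the estimate. Those 4 did so under upper-quartile scaling: ERG24 and NSG2 from early to late OX in the mutant (0.07 each), and ERG26 between early OX and RC in the mutant (-0.03) and in wild type (-0.03). That scaling moved the all-gene median by 0.13 for mutant against wild type in late RB. It changed the share of higher genes among all genes called to 64.7% against 48.6% for late against early OX and to 64.7% against 52.7% for late against early RB in the mutant. The share became 34.8% against 53.5% for late against early RB and 66.8% against 52% for RC against late RB in wild type. It became 33.6% against 47.8% for the genotypes in early OX and 71.8% against 53.4% in late RB, 38% against 50.4% for early OX against RC in the mutant, and 16.2% against 37.2% for the genotype difference of the step into RC.

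Among the 22 genes whose libraries could be separated in every group, 7 were called for the genotype difference of the step into RC, 15 for genotype by time, 11 for early RB against late OX in the mutant, 13 for mutant against wild type in early RB, 6 for late against early RB in the mutant and 9 in wild type; fewer genes were tested there. For mutant against wild type in early OX, 9 were called by the authors' adjusted p and 12 with the libraries of the 2 groups alone. With each library left out, 6 to 12 were called for the genotype difference of the step into RC and 10 to 21 for the genotypes in RC, and the other counts stayed within 1.5 times. Over bins 1 to 57 the median H3K9ac difference of the 31 genes was 0.0206, against -0.0132 over bins 11 to 20. The cause of these shifts was not tested.

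No paired analysis was possible because the recovered libraries carry no replicate letter. The search of promoters for a sterol response motif and the comparison of protein sequences were not run. Values rest on 2 libraries per group. ARE1 and UPC2, which have few reads, and CYB5 have the widest errors (SE of 0.19, 0.14 and 0.14 for late against early OX in the mutant).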

Other observations

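Genes around the sterol pathway were taken from 7 lists chosen by name. Of their 65 measured genes 17 were higher and 24 lower in the mutant over the mean of the 5 time points (limma), which makes 63.1% called, under the 69.4% of all genes, with 37% higher and 32.4% lower, so the counts are no result about these lists. Of 5 genes of sterol ester breakdown and sterol acetylation 3 were higher in the mutant and none lower, among them YEH2, a sterol ester hydrolase (0.35 ± 0.04), and ATF2, a sterol acetyltransferase (0.45 ± 0.11). Of 16 measured sterol transport genes 2 were higher, with YSP2 at 0.56 ± 0.04, and 6 lower, with LAM6 at -0.66 ± 0.05. Of 7 oxygen, heme and sterol regulators none was higher and 5 were lower: MGA2, an activator of the fatty acid desaturase gene, was lower by 1.01 ± 0.03 (adjusted p = 2.65e-12), and ROX1, the repressor of hypoxic genes, by 0.53 ± 0.06. Of 8 heme genes 3 were higher and 4 lower, with HEM2 at -0.63 ± 0.03 and HEM15, the ferrochelatase, at -0.48 ± 0.03. Of 12 genes of other isoprenoid branches 6 were higher and 2 lower, with SRT1, a cis-prenyltransferase of dolichol synthesis, at 1.68 ± 0.12 and STE14 at 0.49 ± 0.05. Of 9 genes of HMG-CoA reductase turnover 2 were higher, with DER1 at 0.60 ± 0.07, and 5 lower, with UBX2 at -0.66 ± 0.05. Of 8 measured genes of anaerobic uptake and cell wall 1 was higher (AUS1, 0.32 ± 0.03) and 2 were lower, with DAN4 at -0.30 ± 0.04.

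From late RB to RC 30.8% of the 65 genes were called in the mutant and 52.3% in wild type. These shares are under the 44.6% and 61% of all genes, so the counts are no result about these lists. Of all genes 23.6% were higher and 20.9% lower in the mutant, and 31.7% were higher and 29.2% lower in wild type. Upper-quartile scaling moved the all-gene median of the wild-type step by 0.16, and the counts per list are those of the main scaling. Sterol transport had 3 genes lower and none higher in the mutant, and 8 lower and none higher in wild type, where HES1 fell by 1.06 ± 0.29 and PRY2 by 1.03 ± 0.11. Heme genes had 2 lower and none higher in the mutant, and 2 lower and 1 higher in wild type, where HEM2 fell by 1.25 ± 0.07 and HEM15 by 0.60 ± 0.07. Anaerobic uptake and cell wall genes had 2 lower in the mutant and 5 lower and 1 higher in wild type, where TIR1 fell by 1.90 ± 0.48 and TIR4 by 0.76 ± 0.12. Ester breakdown had 2 higher and none lower in the mutant, and 2 higher and 1 lower in wild type, where YEH1 rose by 2.38 ± 0.11 and YEH2 by 0.44 ± 0.10. Regulators had 3 higher and 1 lower in each genotype, and in wild type ROX1 rose by 1.54 ± 0.13 and MOT3 by 0.87 ± 0.12. Isoprenoid branches had 2 higher and 2 lower in the mutant and 3 higher and 4 lower in wild type, where COQ1 fell by 1.46 ± 0.12 and BTS1 rose by 0.67 ± 0.15. Reductase turnover had none higher and 3 lower in the mutant and 1 higher (DER1, 0.44 ± 0.15) and 2 lower in wild type, where DFM1 fell by 0.33 ± 0.09.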
